A study of Mus musculus and Ictidomys tridecemlineatus with 36 samples.

Results

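The mitochondrial respiratory chain genes described here are the mouse nuclear genes for subunits of complexes I, III, IV and V, chosen by symbol from the protein-coding genes of GENCODE release M21. A gene entered when it lies on an autosome and its symbol begins with *Nduf* followed by a, b, c, s or v and a number, with *Uqcr*, with *Cox* followed by 4 to 8, or with *Atp5*. The rule gave 78 gene models with 77 distinct symbols out of 20807 autosomal protein-coding genes. Complexes were assigned by symbol alone, which gave 35 to complex I, 8 to complex III, 17 to complex IV and 18 to complex V. *Ndufa4* and its paralog *Ndufa4l2* are thus counted with complex I. The X-linked genes *Ndufa1*, *Ndufb11* and *Cox7b* also match the symbol rule and were left out because they are not autosomal. The rule itself uses no measured value, but it was set with earlier results of these data known. The symbol *Atp5o* stands for 2 gene models. The longer model starts inside the other and runs far beyond its end, and it is called the second *Atp5o* model below.

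The series holds CUT&RUN of postnatal retina, a method in which an antibody directs a nuclease to chromatin and the released fragments are sequenced, and it compares the cone-dominant retina of the 13-lined ground squirrel (13LGS) with the rod-dominant retina of the mouse. Of its 36 libraries in 12 groups, 16 come from 13LGS at P5 and 20 from mouse at P2. The mouse groups used here are H3K4me3, H3K27ac and H3K4me1 with 2 libraries each, Neurod1 with 4 and Otx2 with 8, all set against an IgG control group of 2. The Otx2 group joins 2 antibodies, from R&D Systems and Atlas Antibodies, with 4 libraries each. Every mouse library came from frozen whole retina at P2, each of the 2 biological replicates was a pool of retinas from 3 animals, and 385000 nuclei entered a reaction. The labels name no treatment, strain or genotype for these libraries. The authors deposited 1 peak list per target for all its libraries together, so a value below has no spread between replicates, no test between groups was possible, and the read depth is unknown. A peak counts for a gene when any of its bases lies within 1 kb of a transcription start site (TSS) of any annotated transcript of that gene, and the fold given for a gene is the fold enrichment over IgG of its strongest such peak.

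Complex I takes electrons from NADH, complex III passes them from ubiquinol to cytochrome c, complex IV hands them to oxygen, and complex V uses the proton gradient that the others build to make ATP. Most subunits are encoded in the nucleus, and several have paired genes, with an isoform used by most tissues and another used by striated muscle, testis or cells at low oxygen. Photoreceptors are known for a high demand for ATP and pack mitochondria into their inner segments. H3K4me3 marks active promoters, H3K27ac active promoters and enhancers, and H3K4me1 enhancers and the flanks of promoters. Otx2 and Neurod1 are TFs of photoreceptor precursors.

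Of the 78 genes, 72 (92.3%) had an H3K4me3 peak at a TSS, against 57.1% of all autosomal protein-coding genes. An Otx2 peak was present at 68 genes (87.2%), where the share over all genes was 52.2%. H3K4me1 lay at 71 genes (91.0%, with 64.8% over all genes) and H3K27ac at 35 (44.9%, with 23.1% over all genes). Neurod1 lay at 5 genes (6.41%), close to the 6.0% over all genes. The respiratory chain genes thus had H3K4me3, H3K27ac, H3K4me1 and Otx2 peaks within 1 kb more often than genes at large, and Neurod1 peaks about as often. For H3K4me1 this turned where the peak had to cover the TSS, which it did at 32.1% of members and 35.5% of all genes.

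Much of that gap was shared with other genes that have an H3K4me3 peak. Among the 72 members with one, 94.4% also had an Otx2 peak, against 86.8% of the 11872 genes with H3K4me3. H3K4me1 was present at 97.2% of these members and at 91.9% of such genes. H3K27ac was present at 48.6% of these members and at 37.2% of such genes, and Neurod1 at 6.94% and 9.67%. The 4 genes with H3K4me3 and without Otx2 were *Ndufc2* of complex I, *Uqcr11* of complex III, *Cox4i2* of complex IV and *Atp5h*, the d subunit of the complex V stalk.

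**Figure D1:**
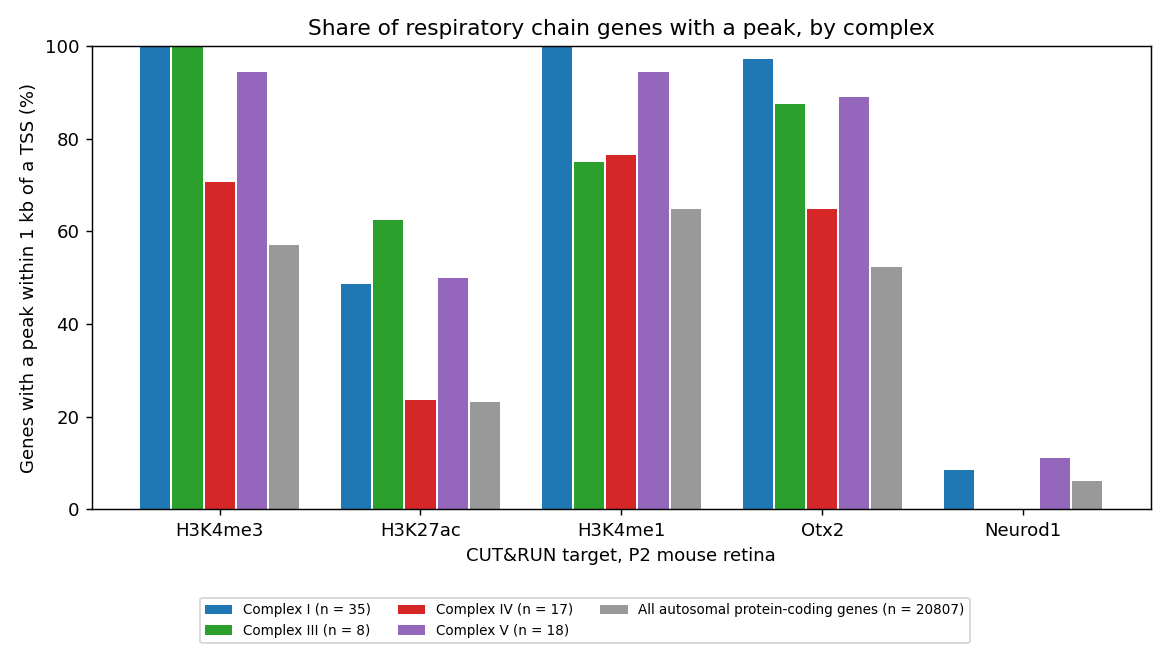
Share of genes with a peak within 1 kb of a TSS, in percent, for each CUT&RUN target of P2 mouse retina. Coloured bars are complexes I (n = 35), III (n = 8), IV (n = 17) and V (n = 18), and grey bars all 20807 autosomal protein-coding genes. Complex IV has the lowest of the 4 H3K4me3 bars at 70.6%. Complexes III and IV have no bar for Neurod1, where the bar of all genes stands at 6.0%.

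The sequences just upstream of the start sites are shown for genes on which the comparisons below turn. All were read from GRCm38, run 5′ to 3′ on the strand of the gene, end at the base before the principal TSS and overlap no annotated exon. In the first 8 sequences the capitals mark an exact copy, on either strand, of the NRF1 motif GCGCATGC, the ETS motif CCGGAAGT that GABP binds, or the Otx2 motif TAATCC. NRF1 and GABP are TFs long known to act at respiratory chain promoters. The first pair is a complex IV subunit with H3K4me3 in the retina, *Cox6a1*, and its striated muscle isoform *Cox6a2*, which had no peak of any target. They lie at chr5:115348982-115349121 and chr7:128206388-128206527, both on the minus strand.
Cox6a1: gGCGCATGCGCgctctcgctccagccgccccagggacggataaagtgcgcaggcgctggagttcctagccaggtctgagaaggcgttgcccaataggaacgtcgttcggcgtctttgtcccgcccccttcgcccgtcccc
Cox6a2: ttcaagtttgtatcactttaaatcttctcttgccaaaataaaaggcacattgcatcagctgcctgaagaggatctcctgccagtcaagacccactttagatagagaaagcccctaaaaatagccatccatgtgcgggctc
The NRF1 motif of *Cox6a1* forms the palindrome in capitals, which contains the motif on both strands, and the sequence of *Cox6a2* holds none of the 3 motifs.

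The next sequences hold an NRF1 motif in complex I (*Ndufa6*, chr15:82354323-82354462, minus strand, and *Ndufa11*, chr17:56717687-56717766, plus strand) and an ETS motif in complex III (*Uqcr11*, chr10:80406831-80406970, minus strand). The stretch before *Ndufa11* is short because the start of *Vmac* lies 82 bp away on the other strand.
Ndufa6: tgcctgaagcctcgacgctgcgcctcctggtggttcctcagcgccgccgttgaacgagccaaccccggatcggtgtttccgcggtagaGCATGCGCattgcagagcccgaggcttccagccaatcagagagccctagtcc
Ndufa11: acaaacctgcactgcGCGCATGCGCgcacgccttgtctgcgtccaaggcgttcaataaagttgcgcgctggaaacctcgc
Uqcr11: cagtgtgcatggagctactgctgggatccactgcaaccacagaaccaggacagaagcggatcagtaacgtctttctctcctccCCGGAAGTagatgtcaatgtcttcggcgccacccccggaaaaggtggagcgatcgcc

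Sequences from genes with high Otx2 folds in complexes III, IV and V follow, with *Cox7a2l* at chr17:83514331-83514480, *Atp5mpl* at chr12:111966978-111967127 and *Uqcr10* at chr11:4704343-4704492, all on the minus strand.
Cox7a2l: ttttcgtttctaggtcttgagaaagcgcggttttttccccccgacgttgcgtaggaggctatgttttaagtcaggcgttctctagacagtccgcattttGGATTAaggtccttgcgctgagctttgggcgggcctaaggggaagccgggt
Atp5mpl: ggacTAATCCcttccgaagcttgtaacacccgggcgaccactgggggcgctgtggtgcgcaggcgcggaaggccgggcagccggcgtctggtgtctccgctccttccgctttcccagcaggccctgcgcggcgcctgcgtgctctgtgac
Uqcr10: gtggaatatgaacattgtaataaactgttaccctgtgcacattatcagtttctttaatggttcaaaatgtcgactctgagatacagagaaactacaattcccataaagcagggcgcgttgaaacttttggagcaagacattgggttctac
The Otx2 motif stands before *Cox7a2l* and *Atp5mpl* but not in the stretch shown for *Uqcr10*, whose Otx2 fold was 7.79. The summits of the strongest Otx2 peaks of these genes lie upstream of the stretches shown.

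In the last pair the capitals mark the CCAAT box, CCAAT on either strand, which was repeated before the ATP synthase β subunit gene *Atp5b* (chr10:128083073-128083272, plus strand) and the c subunit gene *Atp5g1* (chr11:96075671-96075870, minus strand).
Atp5b: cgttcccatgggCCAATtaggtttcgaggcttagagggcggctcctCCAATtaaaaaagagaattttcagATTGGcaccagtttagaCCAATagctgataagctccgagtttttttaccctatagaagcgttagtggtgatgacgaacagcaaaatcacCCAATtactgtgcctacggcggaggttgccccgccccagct
Atp5g1: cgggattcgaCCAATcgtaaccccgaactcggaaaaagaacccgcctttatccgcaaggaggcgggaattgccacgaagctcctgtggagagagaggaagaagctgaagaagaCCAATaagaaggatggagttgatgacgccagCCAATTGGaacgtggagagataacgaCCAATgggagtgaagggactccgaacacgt
Both windows held 5 copies, whereas 10 of the 18 complex V windows held any.

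Counted over a window from 250 bases before to 50 bases from the principal TSS, the NRF1 motif stood in 9 of the 78 promoters (11.5%), against 3.48% of all autosomal protein-coding promoters and 5.56% of those with an H3K4me3 peak. These 9 were spread over the complexes, with 3 in complex I, 1 in complex III, 2 in complex IV and 3 in complex V. The YY1 motif AAGATGGC stood in 6 promoters (7.69%, with 3.07% over all and 4.67% over those with H3K4me3), and all 6 belong to complex I, among them *Ndufa2*, *Ndufa9* and *Ndufb8*. In each it began 11 to 37 bases into the gene, so it lies in the transcribed part. The ETS motif stood in 6 promoters (7.69%), where its share was 5.13% over all promoters and 8.36% over those with H3K4me3, with 3 of the 6 in the 8 promoters of complex III (*Uqcr11*, *Uqcrh* and *Uqcrq*).

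The GC box GGGCGG, which SP1 binds, was present in 28 promoters (35.9%), against 65.7% of all promoters with H3K4me3 and 46.1% of all promoters. The respiratory chain windows had a median of 55.7% G and C, against 61.3% in windows with H3K4me3 and 56.3% over all windows. For the members with H3K4me3 the median was 56.0%. The part of base composition in the GC box counts was not tested. CCAAT stood in 35.9% of members, 38.2% of all windows and 38.3% of those with H3K4me3. The TATA box TATAAA stood in 14.1%, 12.6% and 6.6% of these, and the E-box CAGATG, a form that Neurod1 can bind, in 11.5%, 14.6% and 10.6%. A window was counted once for a motif however many copies it held on either strand, and the strands overlap in the NRF1 palindrome and in CCAATTGG. A copy of these letters is not a measured binding site.

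**Figure D2:**
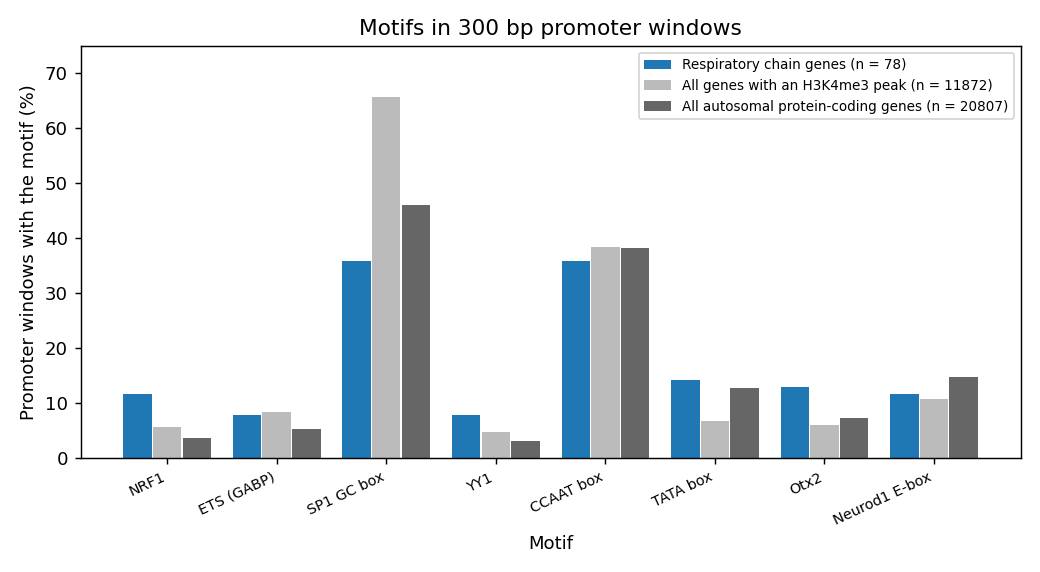
Share of 300 bp promoter windows, in percent, that hold each of 8 motifs on either strand. Blue bars are the 78 respiratory chain genes, light grey bars the 11872 genes with an H3K4me3 peak and dark grey bars all 20807 genes. The blue bar is higher than both grey bars for NRF1 (11.5%), YY1 (7.69%), Otx2 (12.8%) and the TATA box (14.1%). It is lower than both for the GC box (35.9%) and CCAAT (35.9%).

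All 35 complex I genes and all 8 complex III genes had an H3K4me3 peak, as had 17 of 18 in complex V and 12 of 17 in complex IV. The median fold of the members with a peak was 22.6 (quartiles 18.8 and 30.4), against 17.6 (10.0 and 26.9) over all genes with one. The complexes differed little in this, with medians of 23.0 in complex I, 22.9 in complex III, 21.8 in complex IV and 23.6 in complex V. The range within each complex was far wider than the distance between these medians, and the members' folds ran from 3.19 to 65.3. The peaks were not broad, with a median width of 1494 bp where all genes with H3K4me3 had 1581 bp.

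In complex I the highest H3K4me3 folds belonged to the accessory subunits *Ndufb8* (65.3, chr19:44554224-44555788) and *Ndufa2* (47.3). The lowest belonged to *Ndufa4l2* (4.16), an isoform known from cells at low oxygen, and to *Ndufs8* (8.39), which carries iron-sulfur clusters. In complex III *Uqcrc1*, a core protein facing the matrix, had 44.2 and *Uqcrh*, the hinge protein, 40.3, while the small subunit genes *Uqcr11* and *Uqcrq* had 11.8 and 20.4. Complex IV was led by *Cox6c* (38.0) and *Cox5a* (31.0) and ended with the restricted isoforms *Cox4i2* (3.19) and *Cox6b2* (5.11). Complex V ran from *Atp5b*, the catalytic β subunit (54.4, chr10:128082251-128084693), and *Atp5l*, the g subunit (43.0), down to *Atp5s* (10.3) and *Atp5d*, the δ subunit (8.84). The low ends of complexes I and IV were thus isoforms of restricted use, and in complex I also a core subunit. The low end of complex V held a subunit of the F1 part of ATP synthase.

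The 7 core subunits of complex I encoded in the nucleus, which hold the flavin and the iron-sulfur clusters, all had H3K4me3, H3K4me1 and Otx2. *Ndufs1* (45.1) and *Ndufs3* (45.2) had the highest H3K4me3 folds of these and *Ndufs8* the lowest, and the core median of 21.7 lay near the 24.0 of the other 28 genes of the complex. The NADH-binding subunit *Ndufv1* had 19.3, its partner *Ndufv2* 30.4 and *Ndufs7*, which carries the last iron-sulfur cluster, 16.5. H3K27ac was found at 3 of the 7, among them *Ndufs1* (2.73) and *Ndufs3* (3.07). In the 5 genes of the F1 part of ATP synthase, the H3K4me3 folds were 21.9 for *Atp5a1* (α), 54.4 for *Atp5b* (β), 36.5 for *Atp5c1* (γ), 8.84 for *Atp5d* (δ) and 16.7 for *Atp5e* (ε). F1 is built of fixed numbers of these subunits, and their promoters spanned the range of the whole complex.

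**Figure D3:**
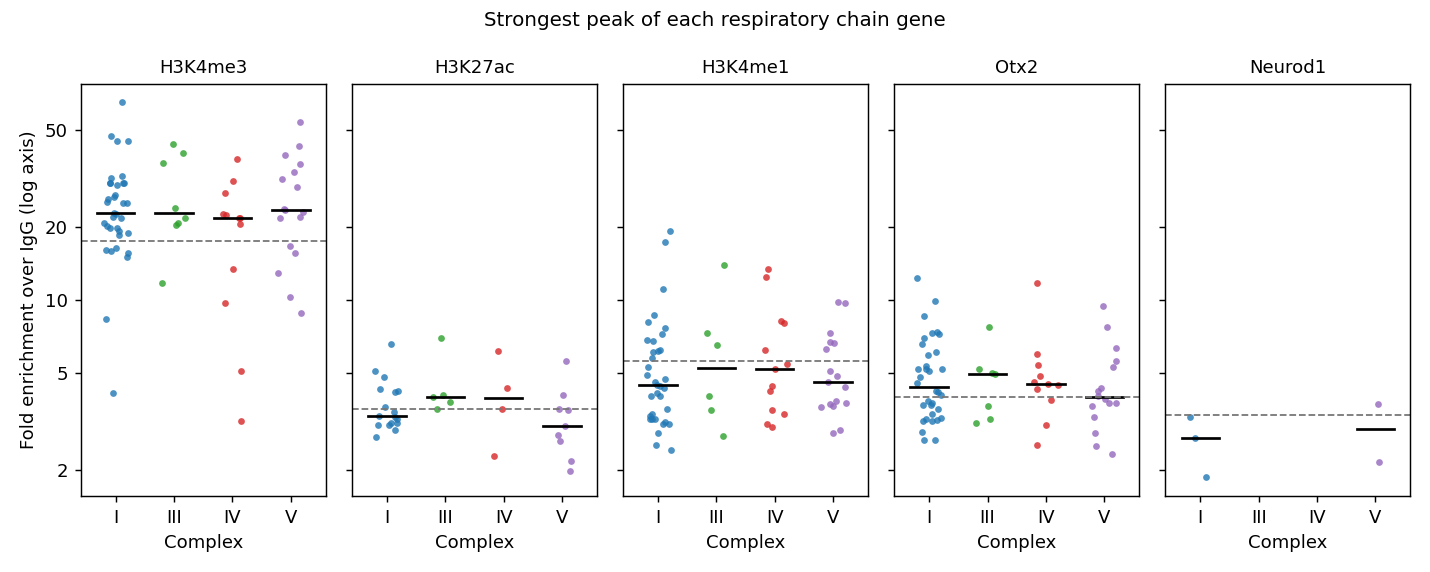
Fold enrichment over IgG of the strongest peak of each respiratory chain gene (log axis), by complex, in 5 panels for the CUT&RUN targets. Points are genes with a peak, short black lines the medians of a complex and dashed grey lines the median over all autosomal protein-coding genes with a peak. The H3K4me3 medians of the 4 complexes (21.8 to 23.6) lie above the dashed line at 17.6, and the H3K4me1 medians lie below theirs at 5.63.

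The 6 genes without an H3K4me3 peak were *Cox6a2*, *Cox7a1* and *Cox8b*, the striated muscle isoforms of complex IV, *Cox7b2* and *Cox8c*, isoforms known from testis, and the second *Atp5o* model. The restricted isoforms among them all belong to complex IV. Without its 7 restricted isoforms, complex IV had 10 genes, and H3K4me3, H3K4me1 and Otx2 were present at all 10. Of the 6 genes, only *Cox7a1* had any peak, a weak H3K4me1 peak of 3.10 at chr7:30183938-30184470 that covers its TSS.

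Over the isoform families, which include *Ndufa4* and the c subunit genes, all 10 genes used by most tissues had H3K4me3, H3K4me1 and Otx2. Of the 8 restricted genes, 3 had H3K4me3, 4 had H3K4me1 and 2 had Otx2. The shares over all genes were 57.1%, 64.8% and 52.2%. H3K27ac lay at 5 of the 10 and 2 of the 8, with 23.1% over all genes. *Cox4i1*, the isoform of most tissues, had an H3K4me3 fold of 22.5 and *Cox4i2*, known from lung and low oxygen, 3.19. *Cox6b1* had 22.6 and its testis isoform *Cox6b2* 5.11. *Ndufa4*, first described with complex I and now placed in complex IV, had 30.3, and its paralog *Ndufa4l2* 4.16. Where both isoforms had a peak, the H3K4me3 fold of the restricted gene was thus the lower in each of these pairs.

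For H3K4me1 the restricted gene was the higher in each of the same pairs, and for H3K27ac in both of these pairs that had it. The Cox7a family went the other way. *Cox7a1* had H3K4me1 of 3.10 and no H3K27ac, where *Cox7a2* had 4.46 and 3.58 and *Cox7a2l* 13.5 and 2.29. The other restricted genes, *Cox6a2*, *Cox7b2*, *Cox8b* and *Cox8c*, had neither mark. At *Cox4i2* H3K4me1 was 12.4 and H3K27ac 6.19, where *Cox4i1* had 5.20 and no H3K27ac peak. At *Ndufa4l2* H3K4me1 was 11.2 and H3K27ac 6.60, where *Ndufa4* had 7.72 and 5.10. The H3K4me1 peak of *Ndufa4l2* was 14035 bp wide (chr10:127509552-127523586) and that of *Cox4i2* 4613 bp (chr2:152753255-152757867), against a median of 1155 bp for the members. *Ndufa4l2* also had 2 Otx2 peaks with summits at -1703 and 1480 bp from its TSS, negative values being upstream, and the upstream peak was the stronger at 7.02, whereas *Cox4i2* had none. *Cox6b2* had H3K4me1 of 6.27 and Otx2 of 5.99, where *Cox6b1* had 3.41 and 3.08, and neither had H3K27ac.

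**Figure D4:**
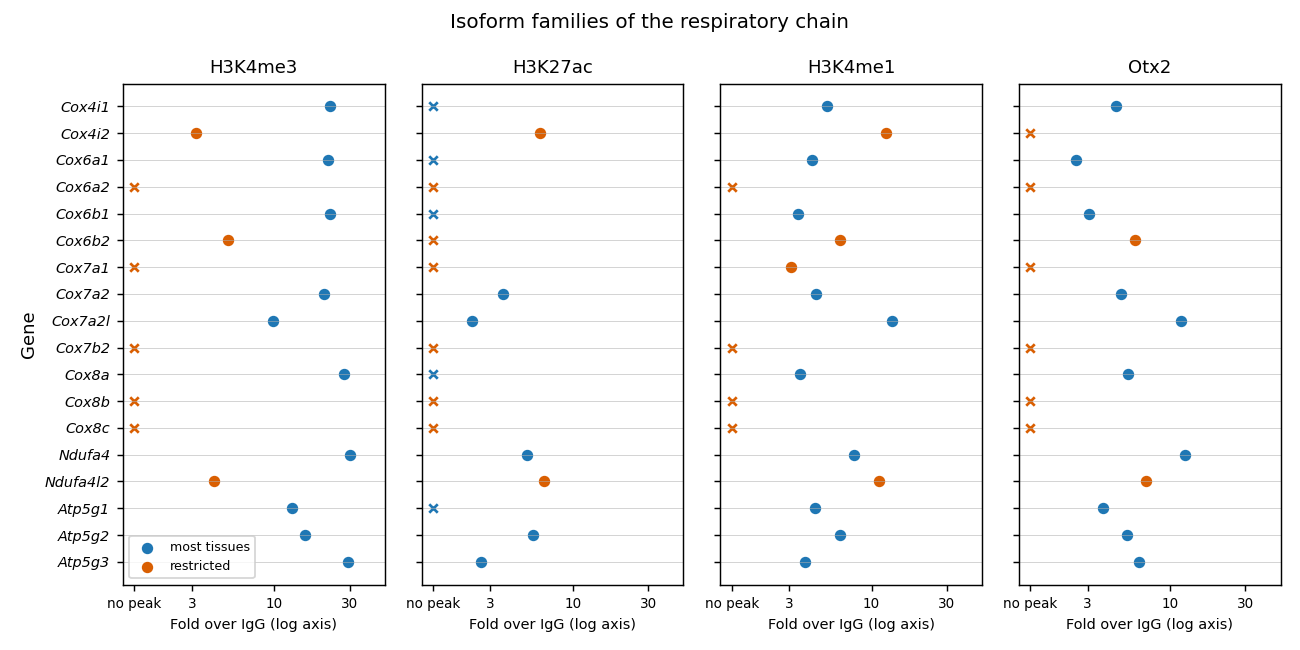
Fold enrichment over IgG (log axis) of the strongest H3K4me3, H3K27ac, H3K4me1 and Otx2 peak within 1 kb of a TSS for the 18 genes of the isoform families. Blue marks isoforms of most tissues and orange restricted isoforms, and a cross at the left of a panel means that no peak was listed. *Cox4i2* and *Ndufa4l2* lie at the low end of the H3K4me3 panel (3.19 and 4.16) and at the high end of the H3K27ac panel (6.19 and 6.60).

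The retina holds blood vessels as well as neurons, and in pooled tissue fewer cells of a type and less of a mark per cell cannot be told apart. Of 7 vascular and pericyte markers, 1 had H3K4me3 (*Notch3*, 11.1) and 6 had H3K4me1, with folds from 2.10 at *Tek* to 14.6 at *Cdh5*, and *Pecam1*, *Cdh5*, *Tek*, *Pdgfrb*, *Rgs5* and *Kcnj8* had no H3K4me3 peak. H3K4me1 also lay at all 10 retinal progenitor and photoreceptor precursor markers, 5 of 8 striated muscle and 4 of 6 pigment epithelium markers. It lay at 2 of 6 microglia and 1 of 7 testis markers. Its share over all genes was 64.8%, so it was not found at the vascular list alone. The part of vascular cells in the peaks of *Cox4i2* and *Ndufa4l2* was not tested. H3K4me3 lay at 1 of 8 striated muscle markers, *Ckm* (10.8), and at 0 of 7 testis markers. All 10 markers of retinal progenitors and photoreceptor precursors had H3K4me3, while 0 of 6 microglia markers and 1 of 6 pigment epithelium markers did.

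The c subunit of ATP synthase is encoded by *Atp5g1*, *Atp5g2* and *Atp5g3*, whose mature proteins are identical. All 3 had H3K4me3, with folds of 13.0, 15.7 and 29.2. H3K27ac followed another order, with 5.62 at *Atp5g2*, 2.63 at *Atp5g3* and no peak at *Atp5g1*. Otx2 folds were 3.77, 5.34 and 6.35. *Atp5g2* also had the widest H3K4me3 peak of all members, 3758 bp. *Cox7a2*, the Cox7a isoform of most tissues, had H3K4me3 of 20.7 and Otx2 of 4.88, and *Cox7a2l*, which joins complexes III and IV into supercomplexes, had H3K4me3 of 9.76 and Otx2 of 11.7.

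H3K27ac was present at 17 of 35 genes in complex I (48.6%), 5 of 8 in complex III (62.5%), 4 of 17 in complex IV (23.5%) and 9 of 18 in complex V, where the share over all genes was 23.1%, and at 3 of the 10 complex IV genes of general use. With so few genes in a complex, no order of the complexes was drawn from these shares. Its folds were low, with a median of 3.57 both for the members and for all genes with a peak. The highest were *Uqcr10* (6.99), a small subunit of complex III, then *Ndufa4l2* (6.60), *Cox4i2* (6.19), *Atp5g2* (5.62) and *Ndufa4* (5.10). *Uqcr10* and *Ndufa4* start 336 and 312 bp from *Zmat5* and *Phf14* on the opposite strand, so their peaks cannot be given to either gene. The members with H3K27ac had a median H3K4me3 fold of 24.1 and those with H3K4me3 and no H3K27ac one of 21.9, a smaller distance than between the 21.9 and 15.1 over all genes.

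H3K4me1 was present at all 35 complex I genes and missing from *Uqcrc1* and *Uqcr10* of complex III, whose H3K4me3 folds were 44.2 and 21.8. Its median fold was lower in the members than over all genes with a peak (4.59 and 5.63), as was its median width (1155 and 1499 bp). Among the 5 highest folds were *Ndufs4* (17.3), *Uqcrfs1*, the Rieske iron-sulfur protein (14.0), *Cox7a2l* (13.5) and *Cox4i2* (12.4).

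Otx2 peaks lay at 34 of 35 genes in complex I, 7 of 8 in complex III, 11 of 17 in complex IV and 16 of 18 in complex V. The median fold was 4.32, against 3.98 over all genes with one. The highest folds by complex were *Ndufa4* (12.4) and *Ndufa12* (9.89) in complex I, *Uqcr10* (7.79) and *Uqcrh* (5.20) in complex III, *Cox7a2l* (11.7) and *Cox6b2* (5.99) in complex IV, and *Atp5c1* (9.44) and *Atp5mpl* (7.78) in complex V. Of these, *Ndufa4*, *Uqcr10*, *Uqcrh* and *Atp5c1* start 83 to 336 bp from another gene on the opposite strand, and their peaks cannot be given to either gene. Across the 68 members with both peaks, Otx2 and H3K4me3 folds were not related in rank (Spearman's rho 0.01), where all 10304 such genes gave 0.19. These points share libraries and genome regions and are a description only.

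TAATCC, which stands in the sequences of *Cox7a2l* and *Atp5mpl* above, was looked for within 200 bp of Otx2 summits. It was present at 11 of the 79 Otx2 peaks of the members (13.9%), at 13.8% of the 12031 Otx2 peaks within 1 kb of any TSS on autosomes and at 33.9% of the 16519 peaks farther away. The members' peaks with the motif had a median fold of 5.03 and those without it 3.99. For all Otx2 peaks within 1 kb of a TSS these medians were 4.02 and 3.58. In the promoter windows the motif stood in 10 of 78 members (12.8%, with 7.18% over all genes and 5.85% over those with H3K4me3). Of these 10, 9 had an Otx2 peak, as had 59 of the 68 members without the motif. The windows lie at the principal TSS, while a counted peak may lie at another TSS of the gene. *Ndufs5* held the motif in its window, and its Otx2 summit was at -1848 bp from the principal TSS. By the count at summits, most Otx2 peaks at respiratory chain genes, as at start sites in general, had no such copy nearby.

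Neurod1 peaks were few and weak. They lay at *Atp5o*, the stalk subunit that confers oligomycin sensitivity (3.76), at *Ndufb7* (3.31), *Ndufa4* (2.71), *Atp5c1* (2.17) and *Ndufs8* (1.86). None of the 25 genes of complexes III and IV had one. With a share of 6.0% over all genes, no difference between the complexes was drawn from this. The median of 2.71 was below the 3.38 over all genes with a Neurod1 peak. *Ndufa4*, *Ndufb7*, *Atp5c1* and *Atp5o* were the 4 members with peaks of all 5 targets (5.13%, with 3.32% over all genes).

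The most frequent state was H3K4me3 with H3K4me1 and Otx2 and no other peak, found at 34 members (43.6%, with 24.6% over all genes). The same 3 with H3K27ac were found at 27 members (34.6%, with 16.0% over all genes). No peak of any target was listed at 5 members (6.41%), against 30.1% of all genes. These were *Cox6a2*, *Cox7b2*, *Cox8b*, *Cox8c* and the second *Atp5o* model.

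The targets took different places around the start sites. H3K4me3 summits lay into the gene, a median of 190 bp from the principal TSS with 87.5% downstream, and over all genes these values were 187.5 bp and 79.5%. Otx2 summits were centred on the start, with a median of 1 bp and 34 of 68 downstream, much as over all genes (-15 bp and 49.0%). H3K4me1 summits lay farther in, a median of 972 bp, where all genes had 918 bp. H3K4me1 covered a TSS at 25 of the members (32.1%, with 35.5% over all genes) while H3K4me3 covered one at 72 (92.3%, with 54.4% over all genes). Measured from the strongest H3K4me3 peak, the H3K27ac summit was inside it at 34 of 35 members (97.1%), with a median distance between summits of 146 bp, and at 62.8% of all genes with both.

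**Figure D5:**
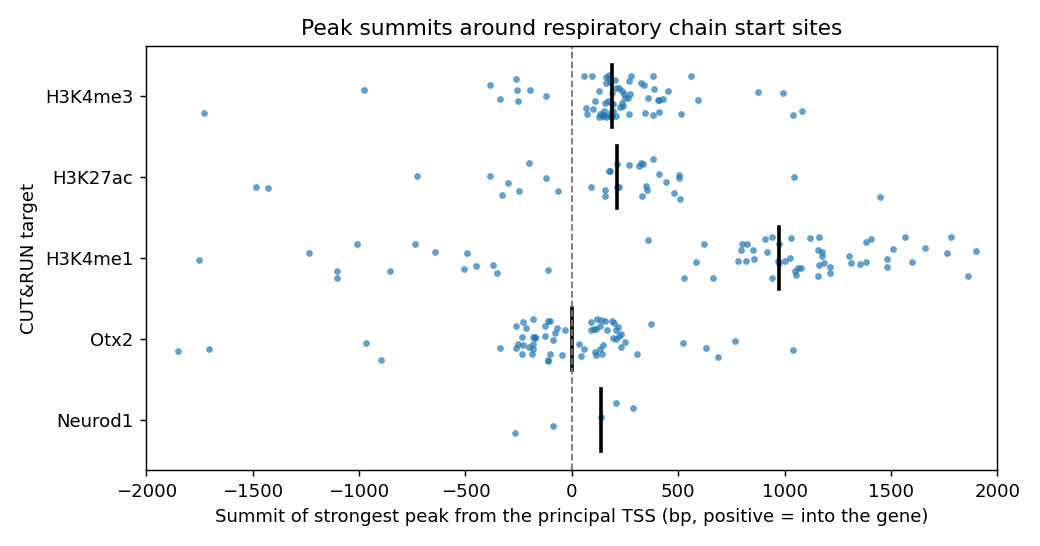
Position of the strongest peak's summit relative to the principal TSS, in bp with positive values into the gene, for the members with a peak of each of 5 targets. Points are genes, black bars medians and the dashed line the TSS, and 7 summits beyond 2000 bp are not drawn. H3K4me3 points gather just right of the line (median 190 bp), Otx2 points on both sides of it (median 1 bp) and H3K4me1 points farther right (median 972 bp).

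Many respiratory chain genes sit close to another gene. A TSS of another protein-coding gene lay within 1 kb for 30 of 78 members (38.5%), against 14.9% of all genes. These were 16 of 35 in complex I, 4 of 8 in complex III, 1 of 17 in complex IV and 9 of 18 in complex V, and for 26 the neighbour was on the opposite strand, a median of 79.5 bp away. Both *Atp5o* models are counted as each other's neighbour.

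The closest neighbours were of several kinds. *Ndufs1* starts 3 bp from *Eef1b2*, a translation elongation factor, *Ndufa7* 10 bp from *Rps28* of the cytosolic ribosome, *Atp5d* 16 bp from *Cbarp* and *Ndufb9* 18 bp from *Tatdn1*. *Ndufb5* and *Ndufs6* start 20 and 29 bp from *Mrpl47* and *Mrpl36* of the mitochondrial ribosome. *Atp5j*, the F6 coupling factor, starts 31 bp from *Gabpa*, the DNA-binding subunit of GABP. At such pairs a peak cannot be given to either gene, and *Atp5j* and *Gabpa* had the same strongest H3K4me3 fold of 23.6. H3K4me3 was present at 29 of the 30 members with a near neighbour (96.7%) and at 43 of the 48 without (89.6%), where over all genes the shares were 88.4% and 51.6%. Otx2 was present at 28 (93.3%) and 40 (83.3%), with 82.5% and 46.9% over all genes.

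Other genes of the pathway, listed by role, had H3K4me3 about as often. It was present at all 7 genes of complex II and the electron carriers (median fold 23.9), at 44 of 46 assembly factors (18.0) and at all 12 nuclear regulators (23.5), among them *Nrf1* (26.4), *Ppargc1a* (24.5) and *Tfam* (10.3). The assembly factors without it were *Sdhaf1*, which serves complex II and had no peak of any target, and *Uqcc2*, which serves complex III and had only Otx2 (2.99). H3K27ac lay at 5 of the 7 genes of complex II and the carriers and at 11 of the 46 assembly factors (23.9%), near the 23.1% over all genes. For comparison, all 78 mitochondrial ribosomal protein genes (median fold 21.9) and 76 of 79 cytosolic ones (38.2) had H3K4me3, and H3K27ac lay at 26 (33.3%) and 30 (38.0%) of them. The members' H3K4me3 folds were thus near those of the mitochondrial ribosome and below those of the cytosolic ribosome.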

How the data were processed

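CUT&RUN of 36 retinal libraries was mapped, and the 5 mouse peak lists were used. The 5 13LGS lists were not used here because no annotation of that genome was at hand. The authors trimmed reads with cutadapt 3.5 and Trim Galore 0.6.4, aligned them to GRCm38 with Bowtie2, filtered them at a MAPQ of 30 with SAMtools 1.12, removed duplicates without molecular identifiers, joined the technical replicates and ran MACS2 on all libraries of a target together against IgG at a q-value of 0.05. The deposited fold enrichment is a ratio over IgG, and the deposited significance is a −log10 q-value, both used as given. A list gives 1 value per peak, so there is no replicate spread, read depth is unknown and no p-value was computed. A gene with a low fold and a gene whose peak was missed at this depth cannot be told apart.

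Genes and start sites came from GENCODE M21 on the same build. The principal TSS is that of the APPRIS principal transcript, and positions count from 1. Peaks were assigned with Python 3.11.15, numpy 2.4.6 and pandas 2.3.3, plots were drawn with matplotlib 3.10.9, and on simulated intervals the assignment gave 0 differences from bedtools 2.31.1. Promoter windows were read from the GRCm38 genome and searched for exact motifs on both strands.

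The members and lists were chosen with earlier results of these data known. Genes were named by rule. It took isoform families, genes without H3K4me3, and in each complex the 2 highest and 2 lowest H3K4me3 and the 2 highest Otx2 folds. It also took the 5 highest H3K27ac and H3K4me1 folds, genes with Neurod1, complex I core and F1 subunits, and pathway genes without H3K4me3. Other genes named, such as close neighbours, regulators and motif holders, were picked after their values were seen. A gene that the rule names is not reported here. The 8 alternatives tried changed the distance, the TSS set, the peak threshold, the number of peaks, the assignment and the treatment of shared promoters.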

Additional observations from a re-analysis of the deposited data

How the results depend on the processing

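Of 216 counts recomputed under 8 alternatives, 161 stayed within 1.5 times and 55 moved further. Leaving out genes with a shared promoter leaves 48 members, fewer by construction. H3K4me3 was then at 43 (complex I 19, III 4, V 9), which is 89.6% of them against 51.6% of all such genes, H3K27ac at 21 (I 9, III 2), H3K4me1 at 43 (I 19, III 3, V 9), Otx2 at 40 (I 18, III 3, V 9) and Neurod1 at 2 (V 0). With only the 4744 most significant peaks of each target, again fewer by construction, the restricted isoforms with H3K4me3 fell to 0, H3K27ac members to 6 (I 3, III 1, IV 1, V 1), H3K4me1 members to 1 (I 1, III 0, IV 0, V 0), or 1.28% against 2.81% of all genes, and Otx2 members to 25 (I 14, III 3, IV 2, V 6), where Otx2 was at 32.1% of members and 14.5% of all genes. With these peaks H3K27ac was at 7.69% of members and 3.97% of all genes. Where the peak had to cover the TSS, H3K27ac fell to 16 (I 6, III 1, IV 2), 20.5% against 11.2% of all genes. H3K4me1 fell to 25 (I 11, III 0, IV 5, V 9), and its share of 32.1% was then below the 35.5% of all genes. Within 250 bp, H3K4me1 was at 45 (I 21, III 3, IV 8), 57.7% against 47.2%. At a −log10 q of at least 5, H3K27ac fell to 23 (I 11, IV 2, V 5), 29.5% against 12.8% of all genes. Neurod1 fell to 3 (V 1), 3.85% against 4.11%. At a fold of at least 2.5, Neurod1 fell to 3 (V 1), 3.85% against 5.27% of all genes. Its share was also the lower without shared promoters (4.17% against 5.37%), and under the other alternatives it was above that of all genes. With each peak given to the nearest gene only, H3K27ac in complex III fell to 3.

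No paired analysis was possible because each deposited list pools the replicates of its target, and for the same reason no replicate could be left out. The H3K4me1 count thus rests on the distance of 1 kb, and the H3K27ac count on weak peaks and on peaks beside the TSS. The Neurod1 count of 5 rests in part on *Ndufs8* and *Atp5c1*, whose −log10 q of 1.49 and 1.38 was near the authors' threshold. At *Atp5o*, *Ndufb7* and *Ndufa4* it was 6.93, 6.26 and 5.10. The H3K4me3 count was 72 at 250 bp and also where the peak had to cover the TSS. The lists of the targets differ in length, from 4744 peaks for Neurod1 to 135798 for H3K4me1, so counts of different targets cannot be compared as levels.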
